A study of Mus musculus with 4 samples.

Results

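The genes described here encode the machinery that releases synaptic vesicles: synaptotagmins, syntaxins and their binding proteins, VAMP and SNAP proteins, complexins, synapsins, SV2 proteins and RIMs. They were measured in tissue from the suprachiasmatic nucleus (SCN) of mice, the brain region that sets the daily rhythm of the body. Members were taken by gene symbol from the probesets that the array annotation assigns to exactly 1 gene, which gave 65 of 41345 probesets and 63 of 22180 genes. Syt10 was left out of the synaptotagmins. Of the 63 genes, 52 counted as expressed, against 11090 of all genes. A gene was called expressed when the highest of its 4 log2 values reached 6.02, the median of that maximum over all genes. The 11 genes below it, 4 synaptotagmins, 4 SNAREs, Cplx3, Cplx4 and Sv2c, had values between 3.50 and 5.96.

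The study used 4 Affymetrix arrays, 1 for each combination of surgical state and time. HPX mice were hypophysectomized, meaning that the pituitary gland had been removed, and control mice are called non-HPX. Mice lived under 12 h of light and 12 h of darkness, and tissue was taken at Zeitgeber time (ZT) 2, soon after lights on, or at ZT14, soon after lights off. Laser microdissection was used to collect it, and it was pooled from 10 animals per time point. The labels do not say whether that number holds for each surgical state or whether control mice had sham surgery, and they give no strain, sex, age or time since surgery. A value therefore comes from a single pool and a single array, with no measure of how animals vary.

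When an action potential reaches a nerve terminal, calcium entry triggers fusion of docked vesicles with the plasma membrane. Fusion is driven by SNARE proteins, a VAMP on the vesicle zipping up with a syntaxin and a SNAP on the plasma membrane; synaptotagmins sense the calcium, complexins and SM-family syntaxin binding proteins control the SNAREs, RIMs hold vesicles near calcium channels at the active zone, and synapsins cluster the vesicle reserve. SCN neurons release GABA from such vesicles and neuropeptides from dense-core vesicles, which fuse by related machinery.

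The arrays had medians between 5.45 and 5.52 and SDs between 2.03 and 2.06 over all probesets on the log2 scale, with the smallest SD on the HPX ZT2 array. All 11 SCN markers were expressed, with Avp between 10.82 and 11.50 and Vip between 11.62 and 11.88. Among genes that mark neighbouring hypothalamic neurons, 5 were expressed. By the limma fit described below, 2 were lower in HPX (Oxt and Th) and 3 did not pass for surgery (Hdc, Npy and Trh). Hdc passed for time in that fit, higher at night by 0.71 (log2). Oxt, which encodes oxytocin, stood at 10.80 and 10.75 in non-HPX (ZT2 and ZT14) and at 8.37 and 9.28 in HPX. In bulk tissue, fewer cells of a type and less RNA per cell cannot be told apart.

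No member passed the test for time of day or for surgery. In the additive limma fit of time and surgery over all expressed genes, 0 of 52 members reached an adjusted p of 0.05 for time, where 0.541% of all expressed genes did (60 of 11090), and 0 did for surgery, where 0.135% did (15 of 11090). At an unadjusted p under 0.05 there were 2 members for time, Syt9 and Snap29, and 1 for surgery, Syt12, against 8.21% and 4.68% of all expressed genes. Across the 4 arrays 51 of the 52 expressed members stayed within 1.5-fold, as did 95.5% of all expressed genes, and 40 stayed within 0.322 on the log2 scale, a smaller step that is used below for single genes, as did 71% of all. The median range over the 4 arrays was 0.21 for members and 0.24 for all expressed genes (log2).

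The size of effect that these arrays could show is limited. Standard errors (SE) of the members' effects lay between 0.11 and 0.14 on the log2 scale, and the smallest effect that passed in any gene was 0.64 for time and 0.77 for surgery. The 95% intervals of the time effect stayed within 1.5-fold for 52 of 52 members and those of the surgery effect for 51 of 52, the exception being Syt12. The residual in this fit is the interaction of time and surgery, on 1 degree of freedom, so a true interaction is counted as noise.

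**Figure D1:**
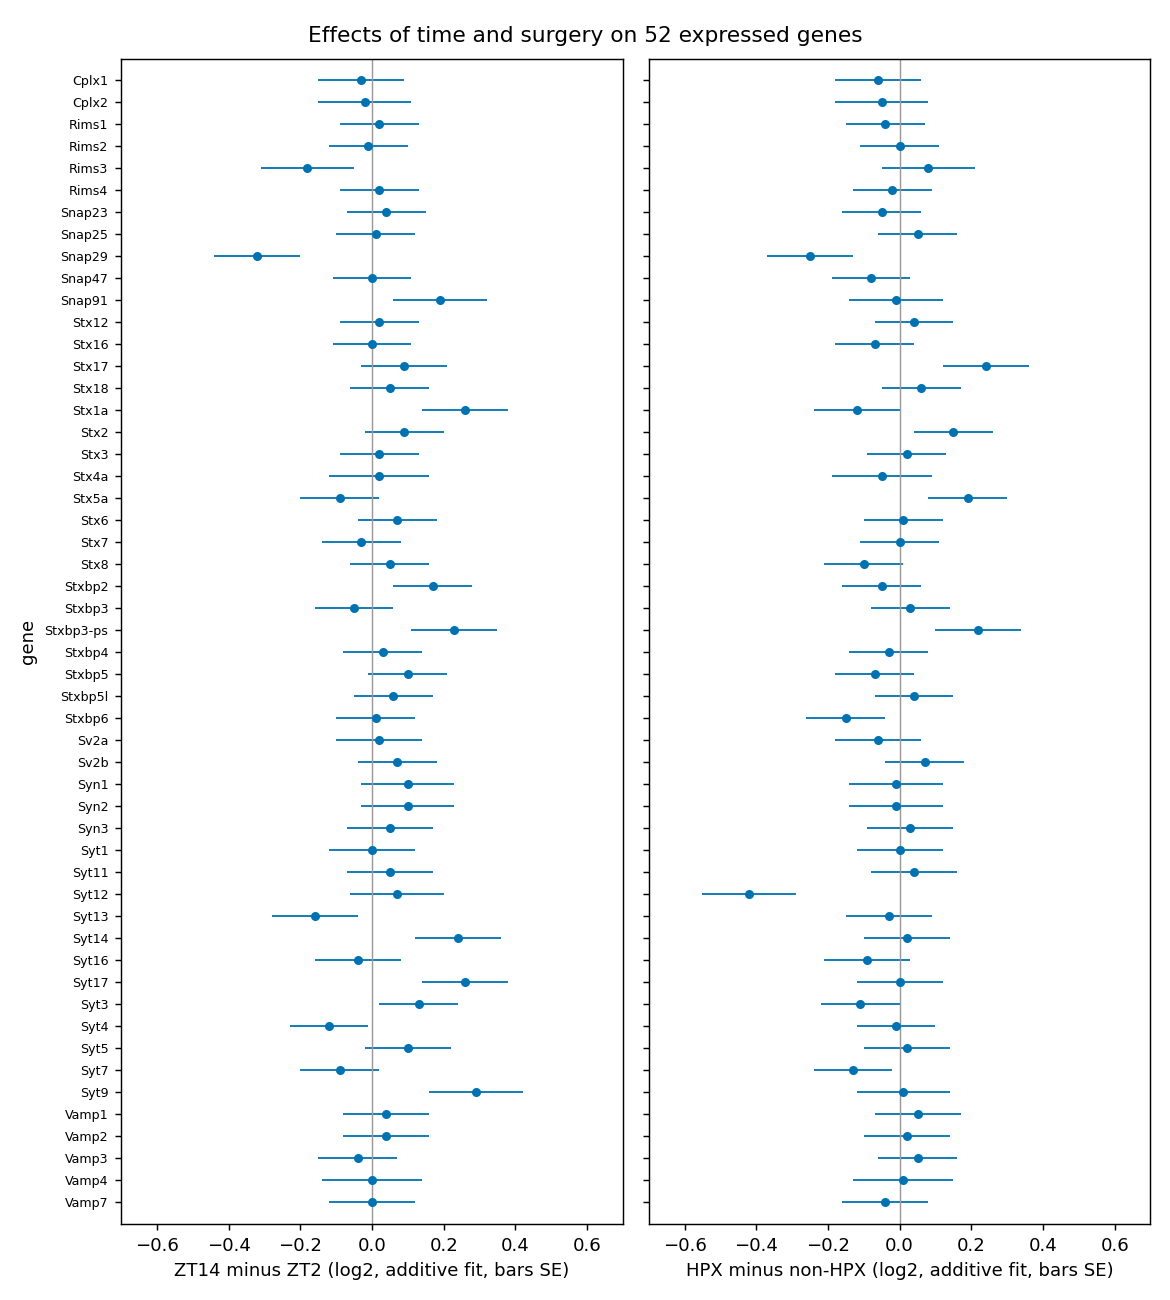
Effect of time (left, ZT14 minus ZT2) and of surgery (right, HPX minus non-HPX) on the log2 scale for the 52 expressed genes, from the additive limma fit over 4 arrays; points are estimates and bars are 1 SE. Snap29 (-0.32) and Syt9 (0.29) lie farthest from 0 for time and Syt12 (-0.42) for surgery, and 0 of the genes reached an adjusted p of 0.05.

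Of the SNAREs that fuse synaptic vesicles, Snap25, Vamp1 and Vamp2 ranged over at most 0.17 (log2) and Stx1a over 0.39. Snap25, the neuronal plasma membrane SNAP, stood at 12.02 in non-HPX ZT2, 11.97 in non-HPX ZT14, 12.01 in HPX ZT2 and 12.09 in HPX ZT14. Its time effect was 0.01 ± 0.11 (SE) with a 95% interval from -0.24 to 0.27, and its surgery effect was 0.05 ± 0.11 with an interval from -0.20 to 0.30. Vamp2, the main vesicle SNARE of forebrain synapses, stood at 8.65, 8.57, 8.55 and 8.70 on the same arrays in that order. Vamp1, its close relative, stood at 7.13, 7.04, 7.05 and 7.21. For all of these the HPX ZT14 array gave the highest value, by small margins.

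The values of Stx1a, a neuronal plasma membrane syntaxin, were 7.72 in non-HPX ZT2, 7.85 in non-HPX ZT14, 7.47 in HPX ZT2 and 7.86 in HPX ZT14. The HPX ZT2 array was thus low and the other 3 lay close together. The night value was 0.13 above day in non-HPX and 0.39 above day in HPX, and the time effect of 0.26 ± 0.12 did not pass (limma, adjusted p = 0.616; 95% interval -0.01 to 0.52).

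Of the 16 synaptotagmins, 12 were expressed and 4 (Syt2, Syt6, Syt8 and Syt15) stayed below the floor on every array. Syt1, the fast calcium sensor of forebrain synapses, stood at 10.5, 10.38, 10.38 and 10.5 (non-HPX ZT2, non-HPX ZT14, HPX ZT2, HPX ZT14). Its 2 high values were the non-HPX day and the HPX night array, so both average effects were 0.00 on the log2 scale (95% intervals -0.26 to 0.26). Syt7, the sensor known for slow and asynchronous release, stood at 6.74, 6.68, 6.65 and 6.52.

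Syt9, another fast calcium sensor, had the largest time effect among the synaptotagmins. It stood at 7.53 in non-HPX ZT2, 7.65 in non-HPX ZT14, 7.37 in HPX ZT2 and 7.84 in HPX ZT14, so both night values lay above both day values. The time effect was 0.29 ± 0.13 (SE; limma, adjusted p = 0.577), 1.08-fold among non-HPX arrays and 1.39-fold among HPX arrays. Syt17, a synaptotagmin-related protein of membrane traffic, had the same order, with 8.68, 8.79, 8.54 and 8.94 and an effect of 0.26 ± 0.12 (adjusted p = 0.62). Syt14, a family member that does not bind calcium, also had both night values above both day values, at 7.87, 8.21, 8.0 and 8.12, with most of the difference in non-HPX (0.34 against 0.13 in HPX).

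Syt12, a synaptotagmin that does not bind calcium, was the only member at least 1.5-fold apart in a pairwise comparison. Its values were 6.32 in non-HPX ZT2, 6.17 in non-HPX ZT14, 5.68 in HPX ZT2 and 5.97 in HPX ZT14. Both HPX values lay below both non-HPX values, and neither HPX value reached the floor of 6.02, which leaves the fold uncertain. It was 1.56-fold lower in HPX at ZT2, where 0.622% of all expressed genes were at least 1.5-fold lower, and 1.15-fold lower at ZT14. The surgery effect was -0.42 ± 0.13 (SE; limma, unadjusted p = 0.00945, adjusted p = 0.728), with a 95% interval from -0.72 to -0.13. Oxt was lower on the same HPX arrays; whether a difference in dissected tissue has a part in the Syt12 values was not tested.

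Syt5 and Syt11 shared their order over the arrays. Syt5, found on dense-core vesicles, stood at 9.86, 9.78, 9.70 and 9.98, and Syt11, which does not bind calcium, at 9.76, 9.64, 9.62 and 9.85. In both the HPX ZT2 array was lowest and the HPX ZT14 array highest. Syt13 was highest on the non-HPX ZT2 array (8.80, against 8.51, 8.63 and 8.61). Syt3 and Syt16 ranged over 0.24 and 0.21.

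Syt4, an activity-induced family member, was the only member with several probesets, and these disagreed. Its brightest probeset gave 10.15, 10.10, 10.08 and 10.19, nearly level across the arrays. The others gave 6.63, 6.16, 6.27 and 6.42, and 5.91, 5.82, 6.08 and 5.68, and their night changes in HPX had opposite signs (0.16 and -0.40). The mean over the probesets, -0.20 at night in non-HPX and -0.046 in HPX, therefore describes no single transcript.

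Synapsins shared an order over the arrays, and SV2 genes did not. Synapsins bind vesicles to each other and to the cytoskeleton, and SV2 proteins are vesicle glycoproteins needed for normal priming. Syn1 stood at 8.77, 8.65, 8.54 and 8.87 (non-HPX ZT2, non-HPX ZT14, HPX ZT2, HPX ZT14), Syn2 at 10.30, 10.20, 10.09 and 10.38, and Syn3 at 8.07, 7.98, 7.96 and 8.15. In all 3 synapsins the HPX ZT14 array was highest, the non-HPX ZT2 array next and the HPX ZT2 array lowest. Sv2a stood at 9.01, 8.86, 8.78 and 8.97, again lowest on the HPX ZT2 array but highest on the non-HPX ZT2 array. Sv2b varied little, from 6.95 on the non-HPX ZT2 array to 7.08 on the HPX ZT14 array, and Sv2c, with values of 5.90, 5.91, 5.59 and 5.90, stayed below the floor.

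In 4 of the 5 expressed genes of this group, all but Sv2b, night changes had opposite signs in the surgical states. Night was lower in non-HPX and higher in HPX for these 4, as it was for 32.5% of all expressed genes. For Syn1 the night change was -0.12 on the non-HPX arrays and 0.33 on the HPX arrays, that of Syn2 -0.10 and 0.29, that of Syn3 -0.09 and 0.18, and that of Sv2a -0.15 and 0.20. Sv2b had 0.07 in both. Averaged over states, none of the 5 expressed genes passed for time, with effects from 0.02 (Sv2a) to 0.10 (Syn1) and SEs between 0.11 and 0.13.

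**Figure D2:**
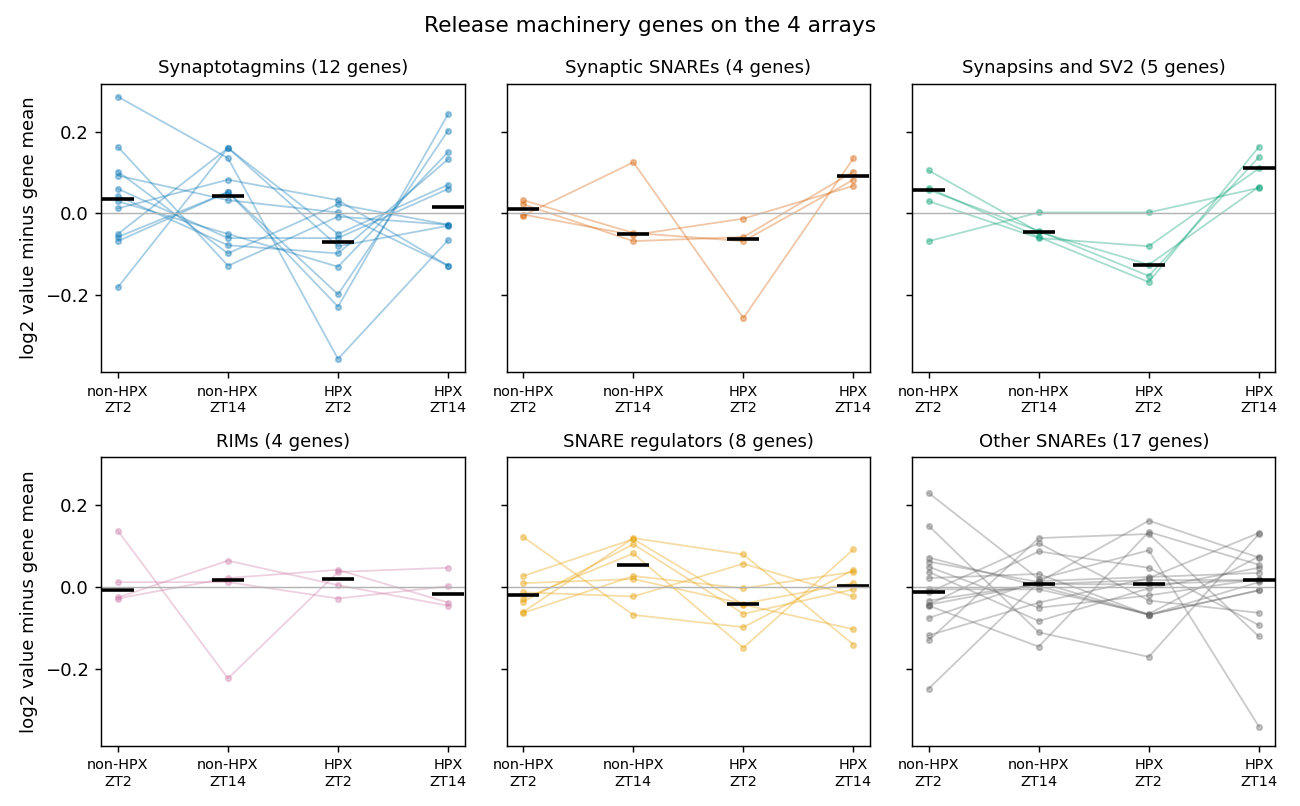
Values of the expressed genes on each of the 4 arrays, as log2 value minus the gene's own mean, in 6 role groups; thin lines join the values of 1 gene (the arrays have no order) and black bars are group medians. The medians of the synapsins and SV2 genes and of the synaptic SNAREs are lowest on the HPX ZT2 array and highest on the HPX ZT14 array, whereas the medians of the RIMs and of the other SNAREs stay near 0.

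Promoters were searched for motifs of clock, cyclic AMP and glucocorticoid signalling. RefSeq's table (GRCm38.p6) held promoters for 48 of the 63 members, and the 250 bases before each start were searched on both strands, both for members and for all 27025 genes in the table. The E-box CACGTG, which the clock activators bind, was found in 7 members (14.6%, against 6.86% of all genes). The cyclic AMP response element TGACGTCA was found in 2 (4.17%, against 1.77%), the D-box TTATGTAA in 0 (0.977% of all genes) and the glucocorticoid half-site AGAACA in 5 (10.4%, against 18.2%). Members' promoters were richer in G and C (median 61.2%, against 52.4% over all), and a match describes letters only, not binding. The promoters of Syn1 and Stxbp3, both holding the cyclic AMP response element, and of Vamp4, holding the E-box, are shown to set a gene whose night changes had opposite signs (Syn1) beside a steady one (Stxbp3) with the same motif; capitals mark the motif, and each sequence ends at the base before the gene's start.
Syn1, chrX:20920919-20921168, minus strand: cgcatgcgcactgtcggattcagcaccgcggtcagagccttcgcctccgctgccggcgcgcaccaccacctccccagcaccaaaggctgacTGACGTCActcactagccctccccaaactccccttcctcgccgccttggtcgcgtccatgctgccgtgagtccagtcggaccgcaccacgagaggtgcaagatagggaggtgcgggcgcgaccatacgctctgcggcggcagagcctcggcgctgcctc
Stxbp3, chr3:108840503-108840752, minus strand: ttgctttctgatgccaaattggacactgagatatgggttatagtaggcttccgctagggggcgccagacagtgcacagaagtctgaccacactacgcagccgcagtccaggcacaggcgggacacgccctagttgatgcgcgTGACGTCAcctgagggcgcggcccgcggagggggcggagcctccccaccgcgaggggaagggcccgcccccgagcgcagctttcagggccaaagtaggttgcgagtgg
Vamp4, chr1:162570265-162570514, plus strand: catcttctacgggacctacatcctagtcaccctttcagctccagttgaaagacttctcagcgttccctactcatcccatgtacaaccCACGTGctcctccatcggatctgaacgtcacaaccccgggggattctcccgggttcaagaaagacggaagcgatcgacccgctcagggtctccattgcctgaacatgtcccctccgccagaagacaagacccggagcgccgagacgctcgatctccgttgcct

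Genes with the cyclic AMP response element did not share an order over the arrays, nor did those with the E-box. Stxbp3, an SM-family partner of the plasma membrane syntaxin Stx4, stood at 7.31, 7.30, 7.38 and 7.30, while Syn1 ranged over 0.33. Of the 5 expressed genes with an E-box, Syt14 and Stxbp2 had higher night values in both states, Sv2b varied by 0.14 in all, Stx6 was -0.0019 at night in non-HPX and 0.14 in HPX, and Vamp4 was 0.25 and -0.25. The expressed genes with the glucocorticoid half-site were Stx2, Stx5a, Sv2b and Stxbp2. HPX minus non-HPX at ZT2 and ZT14 was 0.13 and 0.17 for Stx2, 0.18 and 0.20 for Stx5a, and 0.07 and 0.065 for Sv2b. It was -0.12 and 0.012 for Stxbp2. Of all expressed genes 34.3% were higher in HPX at ZT2 and 53.2% at ZT14. Any part of the motif in these values was not tested.

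SNARE regulators and RIMs control when and where fusion happens. The median range over the 4 arrays was 0.19 for SNARE regulators and 0.1 for RIMs, beside 0.21 for all members (log2). Cplx1 and Cplx2 are the main forebrain complexins, clamps and activators of SNARE complexes. Cplx1 stood at 8.09, 7.90, 7.87 and 8.01, and Cplx2 at 7.47, 7.65, 7.61 and 7.39, so that Cplx1 was highest and Cplx2 second lowest on the non-HPX ZT2 array. Their night changes had opposite signs in each state, -0.19 and 0.13 for Cplx1 and 0.18 and -0.22 for Cplx2. Cplx3 and Cplx4, known from retina, stayed below the floor. Among the syntaxin binding proteins the tomosyns Stxbp5 (9.30, 9.44, 9.27 and 9.33) and Stxbp5l (8.62, 8.71, 8.68 and 8.72), which sequester SNAREs, ranged over 0.17 and 0.10. Stxbp4 ranged over 0.06, Stxbp6, or amisyn, over 0.22 and Stxbp2 over 0.24. The probeset named for the pseudogene Stxbp3-ps (6.65, 6.97, 6.96 and 7.10) may share sequence with Stxbp3, so which transcript it measured is uncertain.

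Rims1 and Rims2, the large active zone scaffolds, were level. Rims1 stood at 8.48, 8.57, 8.51 and 8.46, and Rims2 at 8.98, 9.03, 9.05 and 8.97. Rims4, a short isoform gene, had the narrowest range of all members, 0.04. Rims3 differed: it stood at 8.46, 8.10, 8.36 and 8.37, with only the non-HPX ZT14 array low. The night change of Rims3 was -0.36 without HPX, where 4.83% of all expressed genes were lower by 0.322 or more, and 0.0076 in HPX, and its time effect did not pass (-0.18 ± 0.13; limma, adjusted p = 0.818).

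Most of the SNAREs grouped here outside the synaptic set serve the Golgi, endosomes, lysosomes or constitutive secretion. Of 21 such members 17 were expressed; Stx11, Stx19, Vamp5 and Vamp8 were not. Snap29, which acts in autophagosome and endosome fusion, stood at 7.30 in non-HPX ZT2, 7.09 in non-HPX ZT14, 7.16 in HPX ZT2 and 6.73 in HPX ZT14. Both night values lay below both day values, with the HPX ZT14 array lowest by some way. It had the largest time effect of all members, -0.32 ± 0.12 (SE; limma, unadjusted p = 0.0199, adjusted p = 0.456), 1.16-fold lower at night in non-HPX and 1.35-fold lower in HPX. Stx17, its partner on autophagosomes, was low on the non-HPX ZT2 array alone (7.49, against 7.75, 7.90 and 7.81), with a surgery effect of 0.24 ± 0.12 (adjusted p = 1).

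Other SNAREs with the larger differences were Stx4a, Vamp4, Stx5a and Stx2. Stx4a, a plasma membrane syntaxin of non-synaptic secretion, stood at 7.43, 7.17, 7.11 and 7.41, with night below day in non-HPX (-0.26) and above it in HPX (0.30). Vamp4, of endosome to Golgi traffic, did the reverse, at 6.71, 6.96, 6.97 and 6.72. Stx5a, a Golgi syntaxin, and Stx2, a plasma membrane syntaxin, had both HPX values above both non-HPX values, with 8.34, 8.24, 8.52 and 8.44 for Stx5a and 7.34, 7.42, 7.48 and 7.59 for Stx2, but their surgery effects of 0.19 ± 0.11 and 0.15 ± 0.11 did not pass (limma, adjusted p = 1 for each). The remaining 11 genes of this group ranged over 0.05 (Stx3) to 0.17 (Stx8 and Vamp7).

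Night was compared with day within each state over all members. In non-HPX 0 of 52 were at least 1.5-fold higher (0.406% of all expressed genes) and 0 at least 1.5-fold lower (0.712%). By 0.322 or more (log2), Syt14 was higher (2.56% of all) and Rims3 lower (4.83%). Night was above day for 26 members (42% of all expressed genes). In HPX 0 reached 1.5-fold in either direction (0.956% of all higher and 0.848% lower), 5 were higher by 0.322 or more (Snap91, Stx1a, Syn1, Syt17 and Syt9; 9.26% of all) and 1, Snap29, lower (5.2%). Night was above day for 36 members (58.6% of all). Snap91 encodes a clathrin adaptor of vesicle recycling and is no SNARE despite its name; it stood at 9.63, 9.60, 9.39 and 9.80, low on the HPX ZT2 array and high on the HPX ZT14 array. As a median over members, the night change was 0.00 for non-HPX arrays and 0.06 for HPX arrays, beside -0.03 and 0.04 over all expressed genes.

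**Figure D3:**
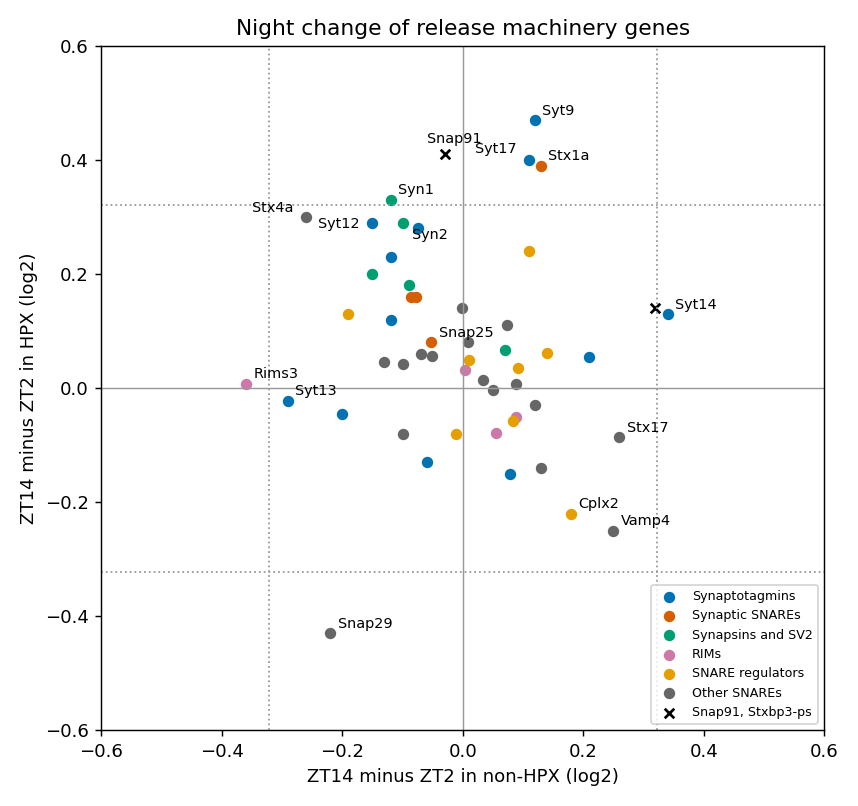
Night change (ZT14 minus ZT2, log2) of each of the 52 expressed genes in non-HPX (horizontal) and HPX (vertical), 1 array per group, coloured by role; dotted lines mark a difference of 0.322. All points lie between -0.43 and 0.47, and synaptic SNAREs, synapsins and SV2 genes lie above 0 on the vertical axis.

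The surgical states were next compared at each time. At ZT2 Syt12 was the 1 member at least 1.5-fold lower and 0 were higher (0.225% of all); by 0.322 or more, Stx4a joined it (6.74% of all expressed genes were that much lower) and Stx17 was higher (2.42%). HPX was above non-HPX for 17 members (34.3% of all). At ZT14 0 members reached 1.5-fold (0.153% of all higher and 0.469% lower) and Snap29 was lower by 0.322 or more (3.12% of all), while 0 were higher by as much (2.91%). HPX was above non-HPX for 32 members (53.2% of all). The median over members was -0.07 at ZT2 and 0.04 at ZT14, beside -0.06 and 0.01 over all expressed genes. These comparisons share arrays with the night changes, so they are not separate evidence.

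Set side by side, the night change was mostly larger in HPX than in non-HPX for synapsins and SV2 genes and for synaptic SNAREs. It was not so for RIMs or SNARE regulators. Among synaptotagmins it was larger in HPX for 8 of 12, near the 61.9% of all expressed genes. The difference, night change in HPX minus night change in non-HPX, had a median of 0.34 over 5 synapsin and SV2 genes (4 above 0), 0.24 over 4 synaptic SNAREs (4 above 0) and 0.26 over 12 synaptotagmins (8 above 0). It was 0.02 over 17 other SNAREs (9 above 0; -0.04 after cyclic loess, another scaling of the arrays), -0.06 over 8 SNARE regulators (3 above 0) and -0.05 over 4 RIMs (2 above 0). Over all 52 members 31 were above 0 (59.6%), close to the 61.9% of all expressed genes, and the median was 0.09 beside 0.07. Higher by 0.322 or more were 10 members, where 15.2% of all expressed genes were, and lower by as much were Cplx2, Stx17 and Vamp4, where 5.92% were. At 1.5-fold there were 0 members 1.5-fold in either direction (1.98% of all higher and 0.956% lower). Night was lower in non-HPX and higher in HPX for 20 members (32.5% of all expressed genes), the reverse for 10 (15.8%), higher in both for 16 (26.2%) and lower in both for 6 (25.4%), namely Snap29, Stx5a, Stxbp3, Syt4, Syt7 and Syt13. Syt4 is counted by the mean of its disagreeing probesets, and its brightest probeset was -0.043 in non-HPX and 0.11 in HPX. With 1 array in each group the difference of night changes has no residual to be tested against.

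The HPX ZT2 array gave the lowest value for 24 of the 52 members (39.4% of all expressed genes) and the HPX ZT14 array the highest for 22 (29.9%). The HPX ZT2 array also had the smallest SD of the 4. After cyclic loess the median differences were 0.28 for synapsins and SV2 genes, 0.19 for synaptic SNAREs and 0.20 for synaptotagmins, smaller and of the same sign.

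General neuron markers shared the sign of the median difference of night changes with these groups, while the array with their highest mean level differed. Of 9 expressed neuron markers (Rbfox3, Tubb3 and neurofilament genes among them) 8 had a positive difference, with a median of 0.28. Of all expressed genes 61.9% had a positive difference, with a median of 0.07, the share to set beside each count here. The neuron markers' mean log2 level was 8.73 in non-HPX ZT2, 8.63 in non-HPX ZT14, 8.49 in HPX ZT2 and 8.64 in HPX ZT14. The HPX ZT14 array was highest for 3 of the 9 markers (29.9% of all expressed genes). It was highest for 4 of 5 synapsin and SV2 genes, 4 of 4 synaptic SNAREs and 5 of 12 synaptotagmins. The HPX ZT2 array was lowest for 5 of the 9 markers (39.4% of all), and for 4, 2 and 7 genes of those groups in that order. Rbfox3, the gene of the neuronal nuclear marker NeuN, stood at 7.08, 6.94, 6.73 and 7.04. Markers of oligodendrocytes went the other way, with 0 of 7 above 0 and a median of -0.17, and so did astrocyte markers, with 2 of 8 above 0 and a median of -0.08, while microglial markers had 0.01 over 6 (-0.04 after cyclic loess) and endothelial markers 0.34 over 5. Over the SCN markers the median was 0.26 (7 of 11 above 0), over 5 markers of other hypothalamic neurons -0.06 and over 2 ependymal and choroid plexus markers -0.03. The part of these markers, and of the narrower HPX ZT2 array, in the pattern of the vesicle genes was not tested.

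**Figure D4:**
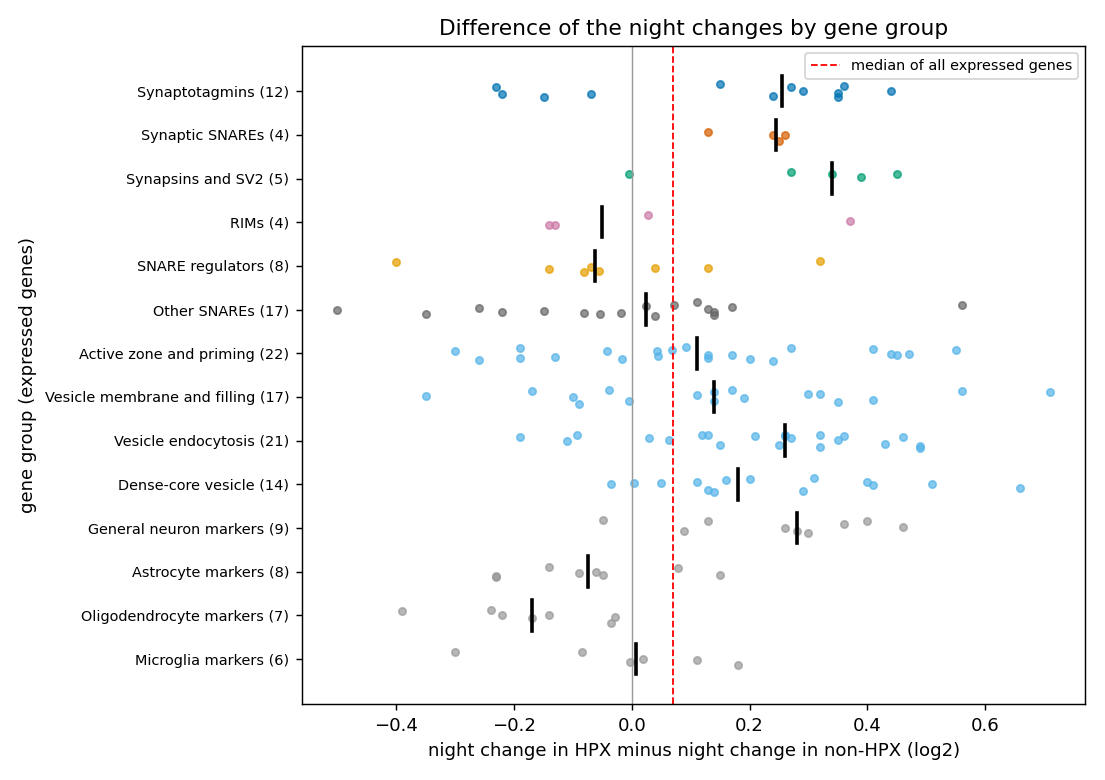
Night change in HPX minus night change in non-HPX (log2) for the expressed genes of 14 groups, with the number of genes in brackets; points are genes, black bars are group medians and the dashed line is the median of all expressed genes (0.07). Synaptotagmins (0.26), synaptic SNAREs (0.24), synapsins and SV2 genes (0.34), vesicle endocytosis (0.26) and general neuron markers (0.28) lie to the right. RIMs (-0.05), SNARE regulators (-0.06) and glial markers lie near or left of 0. Not drawn are endothelial (0.34), SCN (0.26), other hypothalamic neuron (-0.06) and ependymal and choroid plexus (-0.03) markers.

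Other presynaptic genes, from 4 lists drawn up by known function, were compared in the same way. None of their 74 expressed genes passed for time or surgery (limma; 4 and 1 had an unadjusted p under 0.05, beside 8.21% and 4.68% of all expressed genes), and 0 were at least 1.5-fold apart in any pairwise comparison. For the difference of night changes 2 of the 74 reached 1.5-fold, Syngr3 (0.71) and Vgf (0.66), where 1.98% of all expressed genes were that much higher. That difference was above 0 for 57 of the 74, beside 61.9% of all expressed genes. Genes of vesicle endocytosis, which retrieve vesicle membrane after fusion, had median night changes of -0.09 in non-HPX and 0.16 in HPX over 21 genes, and 18 had a positive difference between the states. Dense-core vesicle and peptide processing genes had -0.04 and 0.11 over 14, with 13 positive. Vesicle membrane and transporter genes had -0.09 and 0.05 over 17 (11 positive), and active zone and priming genes 0.00 and 0.07 over 22 (15 positive).

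The largest differences in these lists belonged to Syngr3, a synaptic vesicle membrane protein, and Vgf, a neuropeptide precursor; both were chosen after their values were seen. Syngr3 stood at 9.06, 8.88, 8.75 and 9.28, so that the HPX night array was highest and the HPX day array lowest. Vgf stood at 8.67, 8.17, 8.18 and 8.35, where only the non-HPX ZT2 array was high.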

How the data were processed

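The deposited table holds log2 expression values, which the authors made with Expression Console (Affymetrix) and RMA, as the submitters' processing notes list, without versions. RMA gives every array the same overall distribution of probe brightness, which hides any shift common to most genes. Per the labels' protocols, 5.5 µg of fragmented cDNA was labelled. Of 41345 probesets, 23521 named 1 gene in the platform annotation, 1814 several and 16010 none; the single-gene probesets were averaged per gene. RefSeq (GRCm38.p6) held all 63 members by Entrez identifier and changed 0 symbols. Pairwise differences have no replicates and no test. Time and surgery were fitted additively with limma 3.58.1 under R 4.3.3 (lmFit, eBayes); p-values are two-sided and Benjamini-Hochberg adjusted over 11090 expressed genes, at a threshold of 0.05. The 8.772 prior degrees of freedom outweigh the 1 residual degree, so SEs come largely from the variance pooled across genes. Python 3.11.15 and pandas 2.3.3 did the rest. The number of arrays limits the precision. Members and lists were chosen with earlier results of these data known. Named members were the release core whatever its change, those past 1.5-fold or the threshold, and those with disagreeing probesets. Added to these were the 8 with the largest effect of time, the 8 for surgery and the 8 for the difference of night changes. Alternatives were cyclic loess, no and a stricter expression filter (the 75th percentile), the probeset with the highest mean, trended robust eBayes and a size of 0.322 (log2) in place of 1.5-fold.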

Additional observations from a re-analysis of the deposited data

Results flagged for a closer look

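Night changes of opposite sign in the surgical states, 0.322 or more apart on the log2 scale, were seen in 12 members. The difference, HPX minus non-HPX, was positive in 9: 0.56 for Stx4a, 0.45 for Syn1, 0.44 for Snap91 and Syt12, 0.39 for Syn2, 0.37 for Rims3, 0.35 for Syt5 and Syt11, and 0.34 for Sv2a (log2). It was negative in 3, at -0.50 for Vamp4, -0.40 for Cplx2 and -0.35 for Stx17. Each state has 1 array per time, so these differences were not tested, and both HPX values of Syt12 (5.68 and 5.97) lay below the floor of 6.02. For Rims3 the night change in HPX was 0.0076, next to 0. How many of all expressed genes meet both conditions was not counted. By size alone, 15.2% of them had a positive difference this large and 5.92% a negative one. By sign alone, opposite night changes gave a positive difference in 32.5% and a negative one in 15.8%. The lean toward positive differences was thus seen over all expressed genes too, and the 12 members were not shown to exceed it.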

How the results depend on the processing

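Under cyclic loess, no expression filter, the stricter filter, the probeset with the highest mean and trended robust eBayes, 0 members passed for time or for surgery. Counting differences of 0.322 or more (log2) in place of 1.5-fold gave 2 members for night in non-HPX, 6 for night in HPX, 3 for HPX at ZT2, 1 for HPX at ZT14 and 13 for the difference of night changes. The stricter filter removed Syt12 and left 0 members at least 1.5-fold apart at ZT2. Over all genes the calls for time were 60, and 72 after cyclic loess, 1 with every gene kept and 36 under the stricter filter; for surgery they were 15, and 0 with every gene kept. The adjusted p of Syt12 for surgery ranged from 0.713 to 1 over 4 alternatives and that of Snap29 for time from 0.426 to 0.686. The members' median night change in non-HPX, 0.001, had no stable sign (-0.002 with every gene kept and -0.040 under the stricter filter). Group medians within 0.05 of 0, among them those of other SNAREs, SNARE regulators and RIMs, also changed sign with cyclic loess in some comparisons. Leaving out an array was not run, since 3 arrays leave the additive fit no residual. No paired analysis was possible because each group has 1 array and the labels give no replicate numbers.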

Other observations

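A further probeset, left out because the annotation names E130112N10Rik beside Vamp1, stood at 6.68, 6.46, 6.56 and 6.54 (non-HPX ZT2, non-HPX ZT14, HPX ZT2, HPX ZT14). Its highest value was on the non-HPX ZT2 array, whereas the probeset of Vamp1 alone was highest on the HPX ZT14 array (7.21).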
